A study of Mus musculus with 9 samples.

Results

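The HoxA cluster and its Meis and Pbx partners are represented here by 9 genes: Hoxa3, Hoxa5, Hoxa7, Hoxa9 and Hoxa10 of the HoxA cluster, the cofactor genes Meis1, Pbx2 and Pbx3, and Myb. They were chosen by name, and every probe set annotated with one of these symbols and no other was taken. That gave 22 of the 34958 probe sets with a single symbol, and 9 of 18194 genes. Each gene was read by its brightest probe set (by the mean of the 9 arrays), with probe sets whose identifier ends in _x_at (probes shared with other sequences) used only where a gene had no other. In Sox4 leukaemic cells Hoxa3, Hoxa7, Hoxa9, Meis1 and Pbx3 were higher than in wild type cells, by 1.73-fold for Hoxa7 and at least 6.66-fold for Meis1, while for Hoxa3 and Hoxa9 the size depended on the probe set read. In K/L leukaemic cells none of these 5 genes passed the test against wild type. Sox4 itself was higher than in wild type in both leukaemias, and its part in these changes was not tested. Myb was lower in both leukaemias, and Pbx2 was lower in the Sox4 leukaemia.

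All samples were total RNA of FrII cells, a sorted progenitor fraction that is lineage-negative and Sca-1-negative, c-Kit-positive and low or positive for Mac1, from mice of 2 to 4 months labelled as C57/BL6. There were 3 arrays of K/L leukaemic mice, which carry mutations in both alleles of Cebpa, 3 of leukaemic mice overexpressing Sox4, and 3 of wild type mice. The design text sets both leukaemias against wild type. The labels give blood as the tissue; they do not give how Sox4 was overexpressed, and the CD45.1-negative, CD45.2-positive gate stands in the source names of the leukaemic samples only, so whether wild type cells passed it is not settled.

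Values are log2 of the deposited array intensity, with a floor at 3. Array medians lay between 5.43 and 5.55. Kit, the gene of the c-Kit gate, averaged 9.22 in K/L, 9.18 in Sox4 and 9.17 in wild type cells, while Itgam, which encodes Mac1, lay at 3.70 to 4.02, 3.97 to 4.47 and 4.76 to 4.99 in the same groups and was not tested, with 2 wild type arrays alone above their own 40th percentile. Sox4 averaged 10.67 ± 0.18 in K/L and 9.74 ± 0.13 in Sox4 leukaemic cells, against 3.87 ± 0.08 in wild type cells (SD, n = 3 each); with the mean of all its probe sets the log2 changes were 1.99 and 1.32. Cebpa averaged 10.56 in K/L and 10.58 in Sox4 leukaemic cells, against 9.59 in wild type cells; the probe set does not tell mutant from normal alleles. Wild type array 3 stood apart, with 1082 and 1170 probe sets over 2-fold from the other wild type arrays, where other replicate pairs had 100 to 554. Xist was bright and Kdm5d of the Y chromosome dim on Sox4 array 1 (12.10 and 4.14). On Sox4 array 3 both Xist (11.63) and Kdm5d (9.01) were bright. On Sox4 array 2 and every K/L and wild type array Xist was dim (4.60 to 5.34) and Kdm5d bright (9.60 to 10.86). The groups thus differ in sex-linked genes, and the part of sex was not tested. How many mice an array holds is not settled, n is the number of arrays, and p-values measure only the spread between them.

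Hox proteins are homeodomain transcription factors that bind DNA weakly alone and more selectively together with TALE homeodomain cofactors of the Pbx and Meis families. In the blood system the HoxA genes are active in stem cells and early progenitors and are shut off as cells mature, and sustained Hoxa9 and Meis1 expression is a known driver of acute myeloid leukaemia in mouse and human. Pbx3 is known as a partner of Hoxa9 and Meis1 in such leukaemias. Myb is a transcription factor that keeps progenitors dividing and has been reported downstream of Hoxa9 and Meis1 in mouse leukaemia models.

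The start regions of 4 of these genes are shown to set members of unlike pattern side by side: Hoxa9, Hoxa3 and Meis1 were higher in the Sox4 leukaemia than in both other groups, and Myb was the member lower than wild type in both leukaemias. Each is the RefSeq window of GRCm38.p6 from 250 bases before to 50 bases after the gene's start, written 5′ to 3′ on the gene's strand, which is the minus strand for all 4. Capitals mark every match to one of the motifs searched, on either strand.
Hoxa9, chr6:52227321-52227620: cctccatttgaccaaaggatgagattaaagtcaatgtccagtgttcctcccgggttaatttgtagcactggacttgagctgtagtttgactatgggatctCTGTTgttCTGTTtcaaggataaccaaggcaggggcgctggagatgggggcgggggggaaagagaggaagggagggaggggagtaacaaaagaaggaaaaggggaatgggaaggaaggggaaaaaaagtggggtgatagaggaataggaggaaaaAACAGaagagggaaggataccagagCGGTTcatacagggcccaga
Hoxa3, chr6:52213018-52213317: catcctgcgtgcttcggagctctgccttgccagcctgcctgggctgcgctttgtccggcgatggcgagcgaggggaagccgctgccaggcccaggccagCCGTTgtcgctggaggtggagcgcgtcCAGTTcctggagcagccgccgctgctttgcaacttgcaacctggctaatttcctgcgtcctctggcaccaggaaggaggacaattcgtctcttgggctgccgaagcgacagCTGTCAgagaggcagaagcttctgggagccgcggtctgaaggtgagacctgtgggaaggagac
Meis1, chr11:19018920-19019219: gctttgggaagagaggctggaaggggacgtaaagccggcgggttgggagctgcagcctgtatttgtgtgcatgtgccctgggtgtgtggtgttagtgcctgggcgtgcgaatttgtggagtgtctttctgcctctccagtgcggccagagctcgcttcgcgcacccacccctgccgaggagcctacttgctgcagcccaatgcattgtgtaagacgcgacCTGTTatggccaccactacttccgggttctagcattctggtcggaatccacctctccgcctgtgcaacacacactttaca
Myb, chr10:21160935-21161234: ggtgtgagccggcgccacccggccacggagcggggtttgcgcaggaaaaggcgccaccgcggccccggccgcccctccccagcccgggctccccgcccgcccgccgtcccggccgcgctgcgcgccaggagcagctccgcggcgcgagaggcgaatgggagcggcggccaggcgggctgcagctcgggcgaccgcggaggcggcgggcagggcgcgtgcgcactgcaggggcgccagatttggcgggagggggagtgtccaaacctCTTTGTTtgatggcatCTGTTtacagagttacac

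The motifs were TGACAG (a Meis site), TGATTNAT (a joint Hox and Pbx site), TTGCNNAA (a C/EBP site), AACAAT and AACAAAG (Sox sites) and AACNG (a Myb site). Windows were on hand for 8 of the 9 members, 9 windows in all, with 2 for Hoxa10 and none for Pbx3. TGACAG was found in the Hoxa3 window alone among the 9, beginning 13 bases before the start, and 19.2% of all 32851 windows held it. AACAAAG was found in the Myb window alone, 17 bases after the start (5.9% of all windows), and TTGCNNAA in the second Hoxa10 window alone (10.8%). No window of a member held TGATTNAT (3.2%) or AACAAT (10.7%). AACNG was in all 9 windows, 4 times in that of Hoxa9, and is common everywhere (80.3%). A match describes letters only, and whether any factor binds there was not measured. The windows of Myb and Hoxa9 differed in base composition, with 75.0% and 49.7% G or C, against a median of 52.7% over all windows.

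In Sox4 leukaemic cells, 5 of the 8 tested members were higher than in wild type cells (Hoxa3, Hoxa7, Hoxa9, Meis1, Pbx3), 2 were lower (Pbx2, Myb) and Hoxa5 did not pass. The threshold throughout was an adjusted p under 0.05, from limma with Benjamini-Hochberg adjustment over all 12826 tested genes. For comparison, 47.8% of all tested genes were called, 26.7% as higher and 21.1% as lower, and 56.2% had groups that do not overlap. The median change was 1.18 over the 8 members (1.04 with Meis1 and Pbx3 at the bounds given with their values) and 0.03 over all tested genes. A gene was tested where at least 3 of the 9 arrays exceeded their own 40th percentile, and Meis1 passed through the Sox4 arrays alone, so the filter itself favours a difference of Meis1 from both other groups. Because the arrays hold bulk RNA, more cells of one kind and more RNA per cell cannot be told apart.

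**Figure D1:**
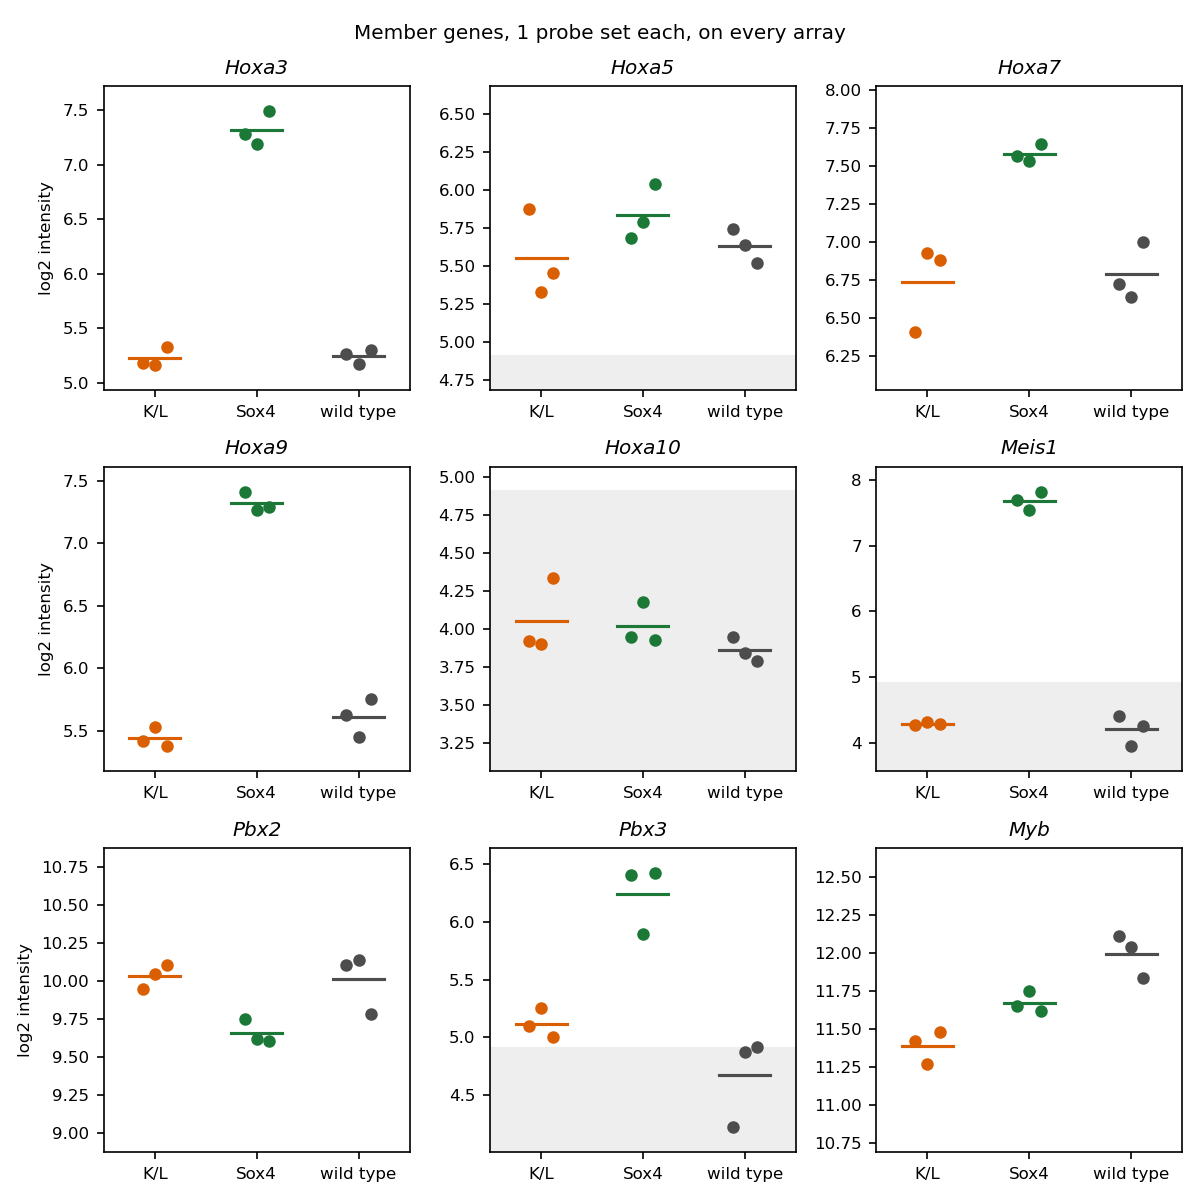
Log2 intensity of each member gene on every array, with 1 probe set per gene, for K/L leukaemic, Sox4 leukaemic and wild type cells. Points are arrays, bars are means of 3 arrays, each panel has its own range, and the grey band lies under the mean 40th percentile of the arrays. The Sox4 points of Hoxa3, Hoxa7, Hoxa9, Meis1 and Pbx3 lie above all other points of their panel.

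Hoxa9, the member best known in myeloid leukaemia, read 7.41, 7.26 and 7.28 on the Sox4 arrays, against 5.62, 5.45 and 5.76 on the wild type arrays. All Sox4 arrays lay above all wild type arrays. The change was 1.71 ± 0.11 on the log2 scale (SE, adjusted p = 1.24e-06 by limma), a 3.27-fold difference. Its second probe set, 1455626_at, gave a far larger difference, with 9.20, 9.22 and 9.33 on the Sox4 arrays, against 3.53, 3.66 and 4.04 on the wild type arrays. This probe set was tested through the Sox4 arrays alone, so its difference of 5.50 is a description. Its wild type values lay under the 40th percentile of their arrays, and with that percentile in place of each lower value the Sox4 level was at least 19.7-fold higher. The size of the Hoxa9 change thus depends on which probe set is read. With the mean of all its probe sets the change was 3.61.

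Hoxa3, an anterior gene of the cluster, read 7.28, 7.19 and 7.49 on the Sox4 arrays, against 5.26, 5.17 and 5.30 on the wild type arrays. The groups did not overlap, and the change was 2.07 ± 0.11 (adjusted p = 3.78e-07 by limma), or 4.21-fold. The other 3 Hoxa3 probe sets were dim. Of these, 1431392_at differed by -0.02 ± 0.17 (adjusted p = 0.944 by limma), and 1429398_at and 1427433_s_at were not tested; the last read 4.46, 4.40 and 4.30 on the Sox4 arrays, against 3.55, 3.72 and 3.20 on the wild type arrays. With the mean of all Hoxa3 probe sets the change was 0.75, with the call kept.

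Hoxa7 read 7.56, 7.53 and 7.64 on the Sox4 arrays, against 6.72, 6.64 and 7.00 on the wild type arrays. All Sox4 values were higher, by 0.79 ± 0.15 (adjusted p = 0.0018 by limma) or 1.73-fold. Hoxa5 read 5.69, 5.79 and 6.04 on the Sox4 arrays, against 5.74, 5.64 and 5.52 on the wild type arrays. These groups overlapped, and the difference of 0.20 had a 95% interval of -0.14 to 0.55 (adjusted p = 0.306 by limma). The other Hoxa5 probe set, 1443803_x_at, did pass, with a change of 0.41 ± 0.11 (adjusted p = 0.0114 by limma). Hoxa10 was not tested: 1446408_at read 3.93 to 4.18 on the Sox4 arrays and 3.79 to 3.95 on the wild type arrays. Its dimmer probe set 1431475_a_at read 3.34, 3.40 and 3.52 on the Sox4 arrays, against 3.02, 3.00 and 3.03 on the wild type arrays.

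Meis1, whose protein binds DNA beside Hox and Pbx proteins, read 7.70, 7.54 and 7.81 on the Sox4 arrays, against 4.41, 3.95 and 4.26 on the wild type arrays. The groups were far apart, with a fitted change of 3.47 ± 0.13 (adjusted p = 5.2e-08 by limma, and 2.25e-06 with no filter on low values). The wild type values lay below the 40th percentile of their arrays, so the difference is a bound, at least 6.66-fold by the same rule. Its other probe sets, 1450992_a_at and 1443260_at, were also tested through the Sox4 arrays alone and are given as a description, at least 1.98-fold and 1.72-fold higher in Sox4 cells.

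The Pbx cofactors moved in opposite directions. Pbx3 read 6.40, 5.90 and 6.42 on the Sox4 arrays, against 4.22, 4.87 and 4.91 on the wild type arrays. No values overlapped, and the change was 1.57 ± 0.20 (adjusted p = 0.000155 by limma). The wild type values lay under the 40th percentile of their arrays, so the difference was at least 2.45-fold. Its second probe set, 1447640_s_at, was under the filter and read 3.86, 4.40 and 4.57 on the Sox4 arrays, with all 3 wild type arrays at the floor. Pbx2 read 9.75, 9.62 and 9.61 on the Sox4 arrays, against 10.11, 10.14 and 9.79 on the wild type arrays. It was lower by a small margin, -0.35 ± 0.12 (adjusted p = 0.0287 by limma). That call was lost when the 2 groups were fitted alone (adjusted p = 0.0589 by limma) and without either of Sox4 arrays 2 and 3 or wild type arrays 1 and 2 (0.0824 to 0.0882).

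Myb read 11.65, 11.75 and 11.62 on the Sox4 arrays, against 12.11, 12.04 and 11.83 on the wild type arrays. It was lower on every Sox4 array, with a difference of -0.32 ± 0.11 (adjusted p = 0.0317 by limma). Both other Myb probe sets were lower too, 1422734_a_at by -0.61 ± 0.10 and 1421317_x_at by -0.49 ± 0.10 (adjusted p = 0.000626 and 0.00328 by limma). The call of the first probe set was lost with the 2 groups alone (adjusted p = 0.0569 by limma) and without any 1 of Sox4 arrays 1 and 3 and wild type arrays 1 and 2 (0.0756 to 0.0989).

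In K/L leukaemic cells, 1 of the 8 tested members was called against wild type, Myb, which was lower, and none was called higher. Over all tested genes 50.6% were called, 29.0% as higher and 21.6% as lower, and 58.1% had groups that do not overlap. The median change was -0.04 over the members and 0.06 over all tested genes. Myb read 11.42, 11.27 and 11.48 on the K/L arrays, against 12.11, 12.04 and 11.83 on the wild type arrays. All K/L values were lower, with a difference of -0.60 ± 0.11 (adjusted p = 0.00107 by limma), or 1.52-fold. The probe set 1422734_a_at gave -1.08 ± 0.10 and 1421317_x_at gave -0.70 ± 0.10 (adjusted p = 1.4e-05 and 0.000332 by limma).

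None of the 4 tested HoxA members passed in K/L cells. Hoxa9 read 5.42, 5.53 and 5.38 on the K/L arrays, against 5.62, 5.45 and 5.76 on the wild type arrays. The groups overlapped, and the difference was -0.17 with a 95% interval of -0.40 to 0.07 (adjusted p = 0.223 by limma). On 1455626_at, which was high in the Sox4 leukaemia, the K/L arrays read 3.91, 3.80 and 3.99, against 3.53, 3.66 and 4.04 on the wild type arrays (difference 0.16, interval -0.14 to 0.46, adjusted p = 0.355 by limma). Hoxa3 read 5.18, 5.16 and 5.33 on the K/L arrays, against 5.26, 5.17 and 5.30 on the wild type arrays (difference -0.02, interval -0.26 to 0.21, adjusted p = 0.884 by limma). Hoxa7 differed by -0.05 with an interval of -0.39 to 0.29, and Hoxa5 by -0.08 with an interval of -0.43 to 0.26.

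Meis1 read 4.28, 4.32 and 4.28 on the K/L arrays, against 4.41, 3.95 and 4.26 on the wild type arrays. The values overlapped (difference 0.09, interval -0.20 to 0.37, adjusted p = 0.599 by limma), and both groups lay below the 40th percentile of their arrays. The dim probe set 1443260_at read 3.26, 3.32 and 3.53 on the K/L arrays, against 3.99, 3.73 and 3.88 on the wild type arrays. It passed the test (adjusted p = 0.00799 by limma), but both groups lay below the 40th percentile, and the difference was 0 with values under 5 raised to 5 (adjusted p = 1). Pbx2 differed by 0.02 with an interval of -0.24 to 0.28 (adjusted p = 0.889 by limma). Pbx3 read 5.10, 5.25 and 5.00 on the K/L arrays, against 4.22, 4.87 and 4.91 on the wild type arrays. All K/L values were the higher ones and only they lay above the 40th percentile, but the difference of 0.45 ± 0.20 did not pass (adjusted p = 0.093 by limma). It did pass with quantile normalization (0.53, adjusted p = 0.0498), with arrays centred on their median (0.54, 0.0474) and with array weights (0.64, 0.0204).

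Between the leukaemias, 5 of the 8 tested members were lower in K/L than in Sox4 cells (Hoxa3, Hoxa7, Hoxa9, Meis1, Pbx3) and 1 was higher (Pbx2). Here 28.9% of all tested genes were called, 14.9% as higher and 14.0% as lower, and 51.1% had groups that do not overlap. The median difference was -0.98 over the members and 0.03 over all tested genes. This contrast is also the test of whether the changes from wild type differ between the leukaemias. Hoxa9 was lower in K/L cells by -1.87 ± 0.11 (adjusted p = 9.14e-07 by limma). On 1455626_at, tested through the Sox4 arrays alone, the K/L level was at least 21.1-fold lower. Hoxa3 was lower, with a difference of -2.10 ± 0.11 (adjusted p = 4.53e-07 by limma; -0.81 with the mean of its probe sets), and Meis1 by -3.39 ± 0.13 (adjusted p = 8.13e-08, and 3.06e-06 with no filter), or at least 7.11-fold. Hoxa7 and Pbx3 were lower, with differences of -0.84 ± 0.15 and -1.12 ± 0.20 (adjusted p = 0.00236 and 0.00241 by limma).

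Pbx2 was higher in K/L cells by 0.38 ± 0.12 (adjusted p = 0.0347 by limma), with no overlap of the 2 groups. That call was lost without any 1 of the K/L or Sox4 arrays (adjusted p = 0.0541 to 0.112 by limma). Hoxa5 differed by -0.29 with an interval of -0.63 to 0.06 (adjusted p = 0.201 by limma). Myb was lower on every K/L array than on every Sox4 array, but its difference of -0.28 ± 0.11 did not pass (adjusted p = 0.0741 by limma). It passed on 1422734_a_at, with a difference of -0.47 ± 0.10 (adjusted p = 0.00564 by limma). For the gene it passed in 6 of 20 alternatives (adjusted p = 0.0163 to 0.0368 by limma): quantile normalization, the mean of all probe sets, the 2 groups alone, a trended and robust variance, array weights and without wild type array 3.

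Ordered by level within each gene, Sox4 cells stood first for Hoxa3, Hoxa7, Hoxa9, Meis1 and Pbx3, with K/L and wild type cells next to each other and not separated by the test. Hoxa5 had the same first place, with no neighbours separated. Pbx2 had K/L (10.03 ± 0.08) and wild type cells (10.01 ± 0.20) together above Sox4 cells (9.66 ± 0.08). Myb was lowest in K/L cells (11.39 ± 0.11), next in Sox4 cells (11.67 ± 0.07) and highest in wild type cells (11.99 ± 0.14, means and SD of 3 arrays). Of its neighbours, Sox4 and wild type cells were separated by the test and K/L and Sox4 cells were not.

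Counted over probe sets, 17 of the 22 were tested. In Sox4 cells against wild type 9 were higher and 5 lower, where 48.1% of all 24036 tested probe sets were called (24.4% higher, 23.7% lower). In K/L cells against wild type none was higher and 4 were lower (51.3% called, 26.3% higher and 25.0% lower), and in K/L against Sox4 cells 1 was higher and 10 lower (27.3% called, 13.5% higher and 13.8% lower). Of these, 4 of the 9 higher, 1 of the 4 lower in K/L against wild type and 4 of the 10 lower were tested through the Sox4 arrays alone. Probe sets of one gene are not independent of each other.

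**Figure D2:**
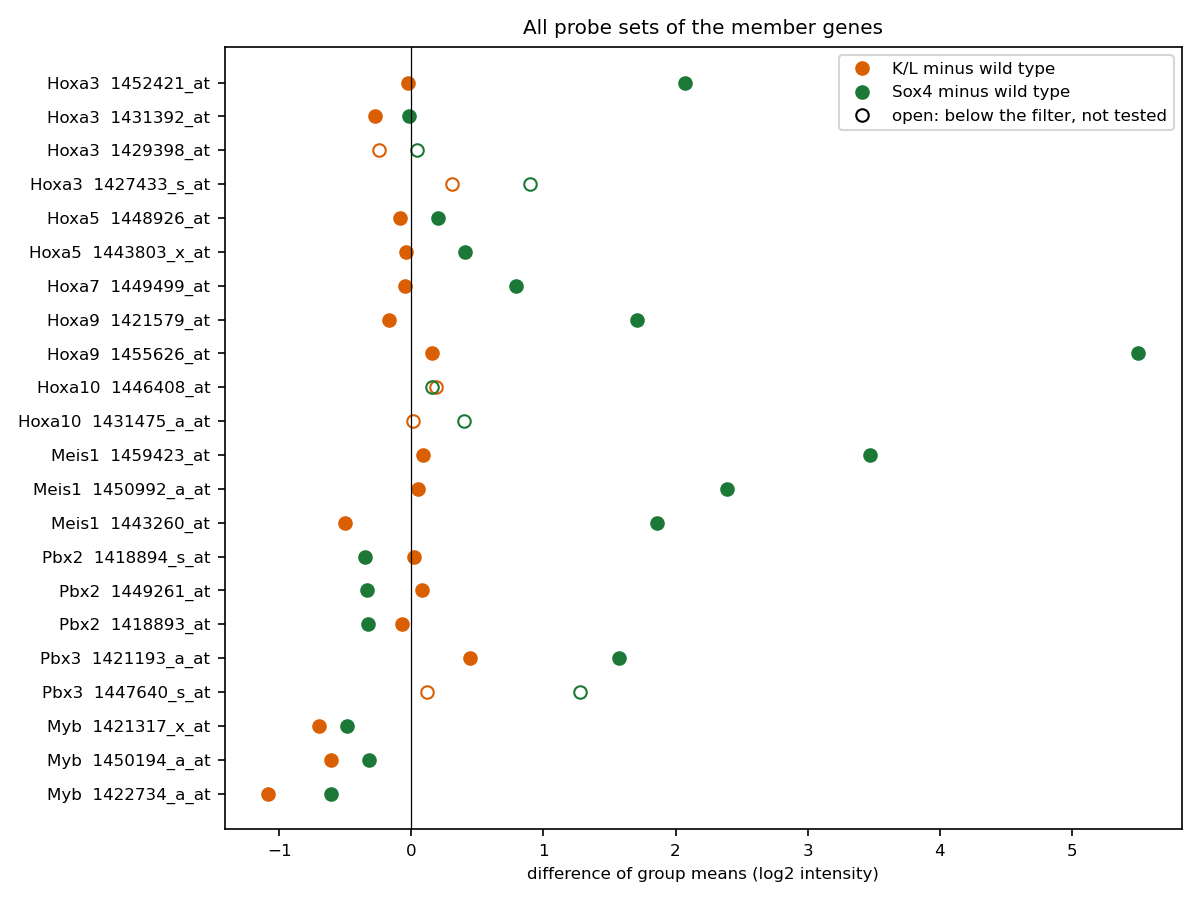
Difference of group means (log2 intensity) for all 22 probe sets of the member genes, for K/L minus wild type and Sox4 minus wild type. Filled points were tested and open points were under the filter on low values. The 3 Meis1 probe sets and both Hoxa9 probe sets lie to the right for Sox4 cells, while 1 of the 4 Hoxa3 probe sets carries its 2.07 change.

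Around the members, the other HoxA genes analysed here were mostly dim. Of Hoxa2, Hoxa4, Hoxa11 and Hoxa13, Hoxa11 alone was tested, and it did not pass in any comparison (adjusted p = 0.656 to 0.915 by limma). Hoxa4, which lies between Hoxa3 and Hoxa5, read 4.67, 4.35 and 4.31 on the Sox4 arrays, above 3.63 to 3.99 on the K/L arrays and 3.66 to 3.99 on the wild type arrays, but stayed under the filter. Hoxa13 was under the filter too, and Hoxa2 was at the floor on all arrays. Of the 8 tested genes flanking the cluster, 2 were higher and 1 lower in K/L than in wild type cells (50.6% of all tested genes were called). In Sox4 against wild type cells 1 was higher and 3 lower (47.8% called). Jazf1, a zinc finger gene, was lower in both leukaemias, with differences of -1.33 ± 0.23 in K/L and -1.31 ± 0.23 in Sox4 cells against wild type (adjusted p = 0.000906 and 0.001 by limma). Hibadh, a valine catabolism enzyme, was higher by 0.86 ± 0.11 in K/L and by 0.37 ± 0.11 in Sox4 cells (adjusted p = 0.000137 and 0.02 by limma), the second lost without Sox4 array 1 or 3 or wild type array 2 (0.055 to 0.0678). Snx10 and Skap2, on the Hoxa2 side of the cluster, differed in Sox4 cells by -0.37 and -0.25, both lower (adjusted p = 0.0256 and 0.0384 by limma), and both calls were lost without wild type array 3 (0.0564 and 0.0612).

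**Figure D3:**
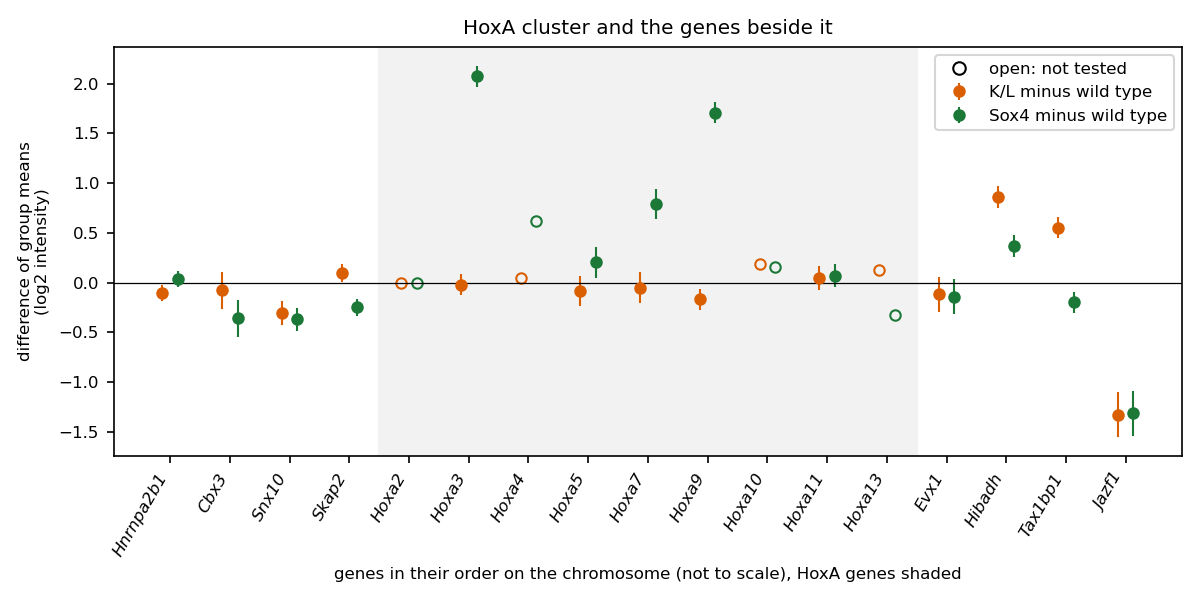
Difference from wild type (log2 intensity) for the HoxA genes, shaded, and the genes on either side, in their order on the chromosome and not to scale. Points are K/L minus wild type and Sox4 minus wild type, bars are standard errors of the fit, and open points were not tested. Hoxa3, Hoxa7 and Hoxa9 stand above 0 in Sox4 cells, with Hoxa5 (0.20) and Hoxa11 (0.07) between or beside them.

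Outside the cluster, the other Hox genes behaved unevenly. Of 4 tested HoxB genes, 2 were higher in Sox4 than in wild type cells (26.7% of all tested genes) and none in K/L cells (29.0%). Without wild type array 3 the K/L count was 1. Hoxb4, which is known to expand blood stem cells when overexpressed, read 7.65, 7.73 and 7.78 on the Sox4 arrays, against 4.59, 5.21 and 5.69 on the wild type arrays. Its groups were clearly apart, with a change of 2.56 ± 0.25 (adjusted p = 2.4e-05 by limma). The K/L arrays read 5.42, 5.35 and 4.87, among the wild type values. Hoxb3, tested through the Sox4 arrays alone, was at least 1.35-fold higher in Sox4 cells. None of 5 tested HoxC and HoxD genes passed in any of the 3 comparisons.

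Of 6 other tested TALE homeobox genes, 1 was higher and 2 lower in K/L than in wild type cells (50.6% of all tested genes were called). In Sox4 cells none was higher and 2 were lower (47.8% called). Those that fell were Tgif1 and Tgif2, which encode repressors in TGF-beta signalling. Tgif2 read 7.27, 7.16 and 7.10 on the K/L arrays and 8.27, 7.86 and 8.05 on the Sox4 arrays, against 8.94, 8.93 and 8.64 on the wild type arrays. Both leukaemias lay below wild type, with differences of -1.66 ± 0.13 and -0.78 ± 0.13 (adjusted p = 5.83e-06 and 0.00082 by limma). Tgif1 fell, with changes of -0.71 ± 0.12 in K/L and -1.33 ± 0.12 in Sox4 cells (adjusted p = 0.000711 and 1.32e-05 by limma). The gene higher in K/L cells was Pbx4, a relative of Pbx3, by 0.57 (adjusted p = 0.0193 by limma). With the mean of its probe sets that change was 0.31 and did not pass (adjusted p = 0.102 by limma). Among relatives of Meis1, Meis3 and Pknox1 did not pass in Sox4 cells against wild type (adjusted p = 0.177 and 0.404 by limma), and Meis2 was under the filter.

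Genes whose products are known to act on HoxA transcription moved in both directions. Of 21 tested activators, 6 were higher and 4 lower in K/L, and 5 higher and 2 lower in Sox4 cells, against wild type. The share called over all tested genes was 50.6% in K/L and 47.8% in Sox4 cells. Kmt2a, the histone methyltransferase that keeps HoxA genes active, was higher by 1.29 ± 0.28 in K/L and by 1.28 ± 0.28 in Sox4 cells (adjusted p = 0.00384 and 0.0041 by limma). Mllt1, a subunit of the elongation complexes that Kmt2a fusions recruit, was higher by 1.57 ± 0.25 and 1.56 ± 0.25 (adjusted p = 0.000599 and 0.000634 by limma). The methyltransferase gene Dot1l was higher by 0.75 ± 0.20 and 0.79 ± 0.20 (adjusted p = 0.0112 and 0.00947 by limma), and without wild type array 3 by 0.48 and 0.51. Wild type array 3 was the lowest array for all of Kmt2a (7.20), Mllt1 (5.89) and Dot1l (7.05). Mllt3 and Aff4 were lower in both leukaemias, Mllt3 by -0.49 ± 0.11 and -0.56 ± 0.11 and Aff4 by -0.62 ± 0.12 and -0.88 ± 0.12 in K/L and Sox4 cells (adjusted p = 0.000236 to 0.00553 by limma). Between the leukaemias no activator was higher in K/L cells and 2 were lower, where 14.9% and 14.0% of all tested genes were. Without wild type array 3 the counts were 4 higher and 3 lower. Kmt2a and Mllt1 each differed by 0.00 (adjusted p = 0.994 and 0.996 by limma). The part of these genes in the HoxA differences was not tested.

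Polycomb proteins keep Hox genes silent through histone marks. Of 19 tested Polycomb genes, 4 were higher and 4 lower in K/L, and 6 higher and 7 lower in Sox4 cells, against wild type, with medians of -0.10 and -0.07. In K/L against Sox4 cells 3 were higher and 2 lower. The shares called over all tested genes were 50.6%, 47.8% and 28.9% in these comparisons, in that order. Bmi1, the ring finger partner in one of the Polycomb complexes, read 9.44, 9.47 and 9.58 on the K/L arrays and 8.64, 8.77 and 8.81 on the Sox4 arrays, against 9.59, 9.60 and 9.71 on the wild type arrays. The Sox4 arrays were lowest, with a difference of -0.89 ± 0.09 against wild type (adjusted p = 3.86e-05 by limma), and the K/L difference of -0.14 did not pass (adjusted p = 0.239). Pcgf2, a relative of Bmi1, was higher in Sox4 cells by 1.15 ± 0.16 (adjusted p = 0.000201 by limma; 0.72 with the mean of its probe sets). Ezh2, the methyltransferase of the other complex, was lower in Sox4 cells by -0.58 ± 0.09 (adjusted p = 0.000439 by limma) and differed by -0.10 in K/L cells (adjusted p = 0.401). Ezh1 and Ring1 were higher in both leukaemias, Ezh1 by 1.11 in K/L and 0.66 in Sox4 cells (adjusted p = 2.13e-05 and 0.000625 by limma). With the mean of its probe sets the Ezh1 changes were 0.61 and 0.28. Ring1 was higher by 0.98 and 0.80 (adjusted p = 0.0001 and 0.000396 by limma). Cbx2 and Mtf2 were lower in both leukaemias. Cbx2 fell, with changes of -1.97 ± 0.17 in K/L and -0.90 ± 0.17 in Sox4 cells (adjusted p = 9.92e-06 and 0.0016 by limma), and Mtf2 by -0.83 ± 0.09 and -0.84 ± 0.09 (adjusted p = 5.96e-05 for both).

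Genes reported downstream of Hoxa9 and Meis1 moved in both directions. Of 28 tested, 12 were higher and 8 lower in Sox4 than in wild type cells, and 6 higher and 11 lower in K/L cells, with medians of 0.18 and -0.14. In K/L against Sox4 cells 6 were higher and 15 lower, with a median of -0.68. The shares called over all tested genes were 47.8%, 50.6% and 28.9% in these comparisons, in that order. Without wild type array 3, 10 were higher and 10 lower in Sox4 than in wild type cells, and 4 higher and 11 lower in K/L cells. In K/L against Sox4 cells 7 were then higher and 15 lower. Some of these genes are also markers of one blood lineage, and Sox4 itself is on the list. Flt3, a growth factor receptor gene of progenitors and a known Meis1 and Hoxa9 target, read 8.45, 8.33 and 8.23 on the Sox4 arrays, against 4.68, 5.30 and 5.30 on the wild type arrays. The Sox4 arrays stood far above, by 3.24 ± 0.20 (adjusted p = 1.09e-06 by limma), while K/L arrays at 5.29, 5.19 and 5.77 did not pass against wild type (0.32, adjusted p = 0.205).

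Mef2c, a transcription factor gene of myeloid and lymphoid progenitors, was higher in Sox4 cells by 3.72 ± 0.47 (adjusted p = 0.000128 by limma). Its wild type arrays were spread, at 6.34, 5.97 and 4.11. The survival gene Bcl2 was higher in both leukaemias, by 0.79 ± 0.14 in K/L and 2.11 ± 0.14 in Sox4 cells (adjusted p = 0.00106 and 2.04e-06 by limma; 0.51 in K/L cells with the mean of its probe sets). Pf4, a platelet chemokine gene tested through the Sox4 arrays alone, was at least 39.4-fold higher in Sox4 than in wild type cells. Cybb, a subunit of the phagocyte oxidase, was lower in K/L and higher in Sox4 cells than in wild type, with differences of -1.83 ± 0.43 and 2.21 ± 0.43 (adjusted p = 0.0054 and 0.00194 by limma). Leaving out wild type array 3 gave -2.41 and 1.63. Others on the list fell in Sox4 cells: Id2, which encodes an inhibitor of helix-loop-helix factors, with a difference of -1.94 ± 0.23, and the progenitor surface gene Cd34 by -0.74 ± 0.09 (adjusted p = 7.63e-05 and 9.19e-05 by limma). In K/L cells Lmo2, a stem cell transcription cofactor gene, fell, with a change of -1.36 ± 0.11 and Trib1, a pseudokinase gene, with a difference of -1.73 ± 0.21 (adjusted p = 5.7e-06 and 8.99e-05 by limma).

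**Figure D4:**
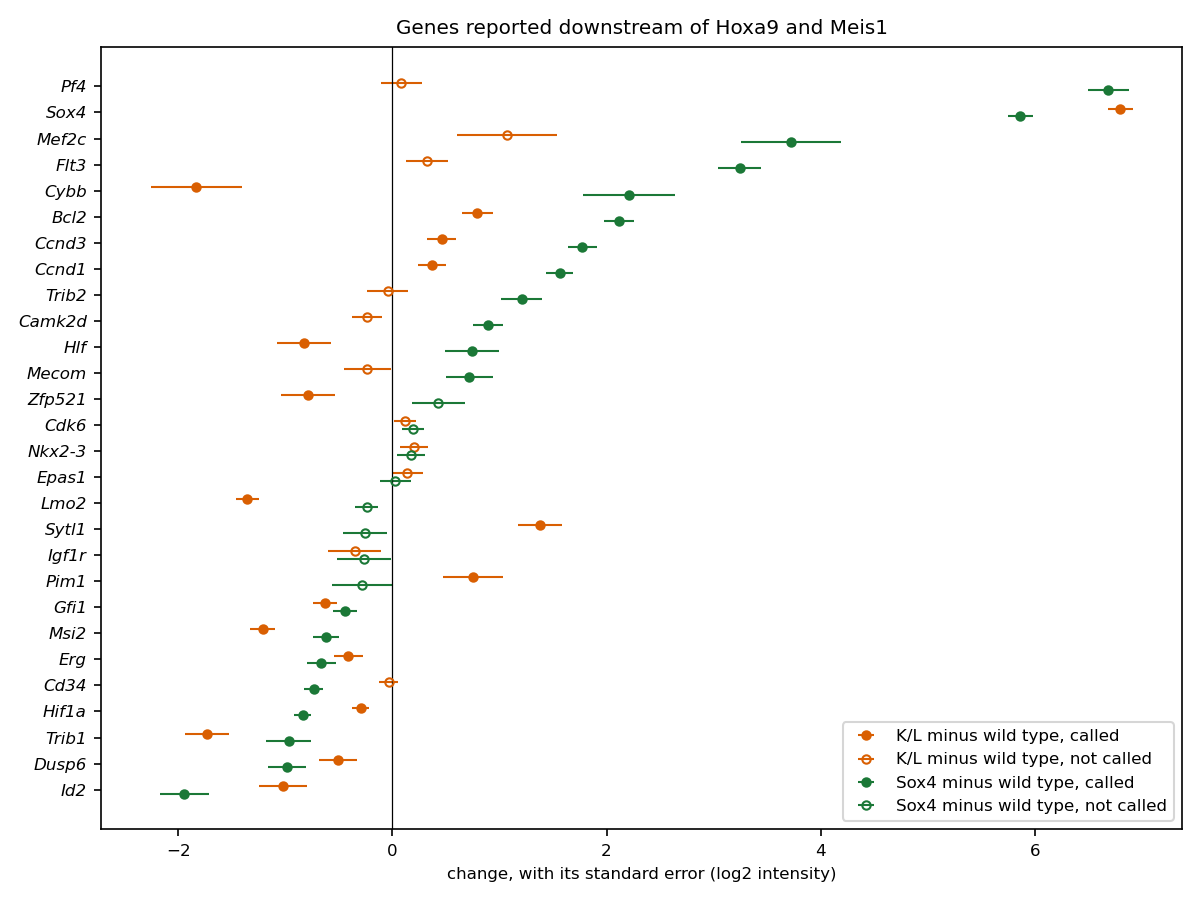
Change from wild type (log2 intensity) with its standard error for the 28 genes reported downstream of Hoxa9 and Meis1, for K/L and Sox4 leukaemic cells. Filled points passed the test and open points did not. For Sox4 cells 12 points are called to the right of 0 and 8 to the left, and for K/L cells 6 to the right and 11 to the left. Without wild type array 3, which is included here, the counts were 10 and 10 for Sox4 and 4 and 11 for K/L cells.

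Around Myb, its relatives and genes reported downstream of it moved in both directions. Of 15 tested, 6 were higher and 4 lower in K/L, and 6 higher and 3 lower in Sox4 cells, against wild type. The share called over all tested genes was 50.6% in K/L and 47.8% in Sox4 cells. Mybl2, a family member active in dividing cells, read 7.40, 7.53 and 7.41 on the K/L arrays and 8.16, 7.87 and 7.95 on the Sox4 arrays, against 5.54, 5.64 and 5.31 on the wild type arrays. It was higher in both leukaemias, by 1.95 ± 0.12 and 2.50 ± 0.12 (adjusted p = 9.2e-07 and 2.22e-07 by limma), and by 0.93 and 1.55 with the mean of its probe sets. Crebbp, whose protein is Myb's coactivator, was higher by 1.47 ± 0.29 in K/L and 1.54 ± 0.29 in Sox4 cells (adjusted p = 0.00194 and 0.00152 by limma), and without wild type array 3 by 1.05 and 1.12. Elane, the neutrophil elastase gene that Myb is known to activate, fell, with a change of -4.04 ± 0.17 in K/L cells (adjusted p = 8.05e-08 by limma) and differed by 0.27 in Sox4 cells (adjusted p = 0.212). Ets1 fell in both, with differences of -2.28 ± 0.13 and -2.44 ± 0.13 (adjusted p = 6.14e-07 and 4.59e-07 by limma).

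Genes most like a member were those with the smallest root mean square difference over the 9 arrays, after each gene's own mean was taken off. For Hoxa9 these were Emb (0.136), Limd1, Arhgap31, Csf1r and Tpst1 (0.160). For Meis1 they were Abcb1b (0.199), Snx7, Kcnj5, Tspan13 and Car1 (0.285), and for Myb they were Rsbn1 (0.0683), Cep68, Rffl, Fam107b and Sephs1 (0.0780). These values describe 3 groups of 3 arrays. In K/L and wild type cells Abcb1b, Snx7, Kcnj5 and Car1 averaged 3.00 to 4.18, below the 40th percentile of all arrays (4.84 to 4.95). Meis1 lay below it in both groups too. Their likeness thus describes a signal on the Sox4 arrays and low values elsewhere, and the filter on low values favours such genes.

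Marker genes of several lineages moved in the same comparisons. Among all tested genes, 26.7% rose and 21.1% fell in Sox4 cells against wild type, and 29.0% rose and 21.6% fell in K/L cells. In the Sox4 leukaemia against wild type, 8 of 10 tested megakaryocyte markers rose and 1 fell, 5 of 8 erythroid markers rose and none fell, 10 of 12 monocyte and macrophage markers rose and 1 fell, 5 of 10 stem and early progenitor markers rose and 3 fell, and 6 of 11 late neutrophil markers rose and 3 fell. Of the risen markers, 2 megakaryocyte (Pf4, Gp5), 1 erythroid (Car1) and 1 stem marker (Tek) were tested through the Sox4 arrays alone. That filter favours a rise. Leaving out wild type array 3 gave 3 rises and 3 falls for stem markers. It gave 7 and 1 for megakaryocyte and 5 and 3 for late neutrophil markers, with the erythroid and monocyte counts unchanged. In the K/L leukaemia against wild type, the counts of rises and falls were 0 and 4 for megakaryocyte, 1 and 1 for erythroid, 6 and 1 for monocyte and macrophage, 1 and 3 for stem and early progenitor, and 0 and 7 for late neutrophil markers. Leaving out wild type array 3 gave 0 and 3 for megakaryocyte, 2 and 3 for stem and 0 and 8 for late neutrophil markers. The erythroid and monocyte counts stayed the same. The summed linear intensity of the late neutrophil markers was 417 to 604 in K/L and 4431 to 4701 in Sox4 cells, against 15447 to 21038 in wild type cells. The same sum was 2173 to 2611, 2604 to 3570 and 2534 to 2633 for megakaryocyte markers, 1559 to 1796, 3161 to 3652 and 2447 to 2833 for erythroid markers, 6954 to 8418, 12276 to 13033 and 5015 to 5201 for monocyte and macrophage markers, and 4662 to 4887, 3234 to 3301 and 4420 to 4749 for stem markers, in K/L, Sox4 and wild type cells. Fewer markers of other cells were tested: in K/L and Sox4 cells, 3 and 1 of 5 B cell markers rose (0 and 1 fell), 1 and 1 of 5 T and NK cell markers rose (0 and 0 fell), 3 and 2 of 6 mast cell and basophil markers rose (2 and 1 fell), and 3 and 2 of 5 eosinophil markers rose (0 and 2 fell). Of the eosinophil markers that rose in Sox4 cells, 1 (Epx) was tested through the Sox4 arrays alone. No marker sat at the floor throughout a group. The ratio of 3′ to 5′ Gapdh probe signal, a measure of RNA length, lay at 1.93 to 2.00 for the K/L arrays, 2.22 to 2.44 for the Sox4 arrays and 2.68 to 2.91 for the wild type arrays. The same ratio for actin lay at 0.87 to 0.91, 0.88 to 0.91 and 0.88 to 0.98, and these ranges overlapped. The part of cell makeup and of RNA length in the changes of the HoxA, Meis and Pbx genes was not tested.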

How the data were processed

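The authors deposited 1 table of microarray intensity values for 45101 probe sets of 9 arrays. They are linear, and none is under 8 (3 in log2). RMA is named per the submitters' processing notes. Its version, the scaling between arrays and the origin of the floor are not stated in the sources used here; the values are not centred per gene. Array medians were 43.1 to 46.8 in linear intensity. For arrays, their number limits the precision.

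Values were log2 transformed and not scaled further. Groups came from sample titles. Gene symbols came from the platform's annotation of 2016, where 34958 probe sets had 1 symbol, 932 several and 9211 none. Only those with 1 were used, 1 a gene. Testing required 3 of 9 arrays over their own 40th percentile. limma 3.58.1 (lmFit and eBayes, R 4.3.3) fitted all 9 arrays with the group as the only term, with 6 residual and 3.71 prior degrees of freedom and Benjamini-Hochberg adjustment at 0.05. With 3 against 3 arrays the smallest two-sided exact permutation p is 0.1, so none is given. The procedure was tested on simulated data.

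Named genes are the 9 members, tested genes of the other HoxA, flanking and TALE lists, up to 4 genes of smallest p in every other list and comparison, Sox4, Cebpa, sort gate genes and the 5 most similar genes of Hoxa9, Meis1 and Myb. Some genes outside that rule were chosen for their role after their values were seen, among them Dot1l, Id2, Mef2c and Crebbp. The members and all gene lists were chosen with earlier results of these data known. Same-numbered arrays of different groups were not taken as pairs, because their deviations from the group means correlated at -0.011 to 0.069 (others -0.055 to 0.047). Promoter windows come from RefSeq GRCm38.p6. Protein sequences were not analysed here. Alternatives covered normalization, filters, low values, the choice of probe set, the samples in the fit, the variance model, array weights, a replicate block and leaving out each array.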

Additional observations from a re-analysis of the deposited data

Results flagged for a closer look

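For 6 members the change from wild type differed between the leukaemias by a test of that difference, which is the contrast of K/L with Sox4 cells in the same limma fit. The K/L change minus the Sox4 change was -3.39 for Meis1 (adjusted p = 8.13e-08), -2.10 for Hoxa3 (4.53e-07) and -1.87 for Hoxa9 (9.14e-07). Meis1 was tested through the Sox4 arrays alone, which favours such a difference, and its K/L and wild type values lay below the 40th percentile; with no filter on low values its adjusted p was 3.06e-06. The difference was -1.12 for Pbx3 (0.00241), -0.84 for Hoxa7 (0.00236) and 0.38 for Pbx2 (0.0347). All 3 K/L arrays lay on one side of all 3 Sox4 arrays for each of these genes, as they did in 51.1% of all tested genes. Both changes use the same wild type arrays, which cancel in the difference.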

How the results depend on the processing

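The calls of Hoxa3, Hoxa7, Hoxa9, Meis1 and Pbx3 in Sox4 against wild type cells and in K/L against Sox4 cells were kept under every alternative that gave a value for them, as was the lower Myb level in K/L against wild type cells. Over these alternatives the Sox4 change from wild type was 0.75 to 2.14 for Hoxa3, 0.72 to 0.90 for Hoxa7, 1.63 to 3.61 for Hoxa9, 2.57 to 3.58 for Meis1 and 1.24 to 1.79 for Pbx3. Leaving out 1 array at a time gave 1 member called at its lowest and 1 at its highest in K/L against wild type cells, 5 to 7 in Sox4 against wild type cells and 5 to 7 in K/L against Sox4 cells. In K/L against wild type cells the count of members called was 2 (1 higher, 1 lower) with quantile normalization, with arrays centred on their median and with array weights, where Pbx3 joined Myb. With the replicate number as a block, which pairs same-numbered arrays, Myb in Sox4 against wild type cells (-0.32, adjusted p = 0.0534 by limma) and Pbx2 in K/L against Sox4 cells (0.38, 0.0556) lost their calls, and the block changed no other call of a member. Hoxa5 passed with the mean of its probe sets, by 0.31 in Sox4 against wild type cells (adjusted p = 0.0233 by limma) and by -0.37 in K/L against Sox4 cells (0.0163). Small differences of K/L from wild type that were not called changed sign. With quantile normalization they were 0.062 for Hoxa3, 0.0166 for Hoxa5 and 0.0481 for Hoxa7, and with arrays centred on their median 0.0715, 0.0099 and 0.0447. With the mean of all probe sets Meis1 was -0.12 and the called rise of Mllt10 (0.33) became -0.0589, and with array weights Pbx2 was -0.0656. Leaving out 1 array at a time, they ranged over -0.0742 to 0.0086 for Hoxa3, -0.2442 to 0.0287 for Hoxa5, -0.1426 to 0.1178 for Hoxa7, -0.0381 to 0.1904 for Meis1 and -0.0901 to 0.088 for Pbx2. Centring arrays on their median raised the median change of all genes in K/L against wild type cells to 0.15, from 0.06 as deposited. The cause of these shifts was not tested. Meis1 in K/L and wild type cells, Pbx3 in wild type cells and both Hoxa10 probe sets lay below the 40th percentile, so differences among such values were not measurable on these arrays and folds against them are bounds.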

Other observations

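Hoxa9 was read by 2 probe sets that gave 1.71 and 5.50 for the same change from wild type, and the rule of the highest mean chose the smaller one, because 1455626_at lay at 3.80 to 3.99 on the K/L and 3.53 to 4.04 on the wild type arrays. Probe sequences were not analysed here, so which transcripts each covers is unknown. Ccnd3, a cell cycle gene on the list downstream of Hoxa9 and Meis1, had a change of 1.77 in Sox4 cells with the probe set used and 0.28 with the mean of all its probe sets.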
